A study of Rattus norvegicus with 4 samples.

Results

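The genes described here encode the G protein-coupled receptors for serotonin (Htr1, Htr2 and Htr4 to Htr7 subtypes), noradrenaline and adrenaline (Adra and Adrb genes), acetylcholine at muscarinic sites (Chrm genes), dopamine (Drd3 to Drd5) and histamine (Hrh genes). They were taken by a rule on gene symbols, and 31 of the 14008 genes with an NCBI Gene ID (called known genes below) matched. Of these receptors, 30 were listed in all 4 libraries, where 13033 known genes were listed, and Hrh4 was listed in the male libraries only. Drd1, Drd2 and the ion channel Htr3a lie outside the choice and are given beside it.

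RNA from the frontal cortex of newborn rats was sequenced after selection with oligo(dT), with 1 library for each combination of sex and prenatal treatment. The labels give the strain as Wistar and the age as postnatal day 1, while the study's methods name Wistar Furth rats and days 1 to 2. Dams of the BPA groups were given 5000 µg of bisphenol A per kg of maternal body weight by gavage each day from gestational day 1 until birth, and dams of the control groups received the vehicle, which contained corn oil. The libraries are named by treatment and sex, a pair is the control and the BPA library of a sex, its values are given as control and then BPA, and the methods give 3 pups per sex and treatment, from independent litters, for sequencing and PCR together without stating whether a library pooled them. With 6 litters in all, the male and female pups of a treatment may have shared litters. Each pair sets 1 library against 1, so its differences compare those libraries, not the conditions, and have no replicate check.

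Monoamines reach the cortex through long axons of brainstem and hypothalamic neurons, and acetylcholine arrives mainly from the basal forebrain. Their receptors act through G proteins: those coupled to Gi lower cyclic AMP, those coupled to Gs raise it, and those coupled to Gq activate phospholipase C. In the developing cortex these transmitters are known to influence neuronal migration and the growth of circuits before synapses mature.

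Values are FPKM (fragments scaled by transcript length and library depth), as the authors deposited them, with 0.01 as the lowest value in place of 0. The depth, recovered from the steps in which the FPKM of scarce transcripts moved, was 9257500 and 9190000 fragments in the male pair and 8955000 and 9000000 in the female pair. It gave an estimated number of fragments behind each value. Intervals from these fragments are exact 95% intervals and cover counting error only.

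The tissue label was checked against marker genes. Of 10 cortical markers, 9 were listed and all 9 reached 1 FPKM in every library, with a summed level of 684 and 765 FPKM in the male pair and 678 and 737 in the female pair. Neurod6, a transcription factor of cortical excitatory neurons, was the most abundant of them, and Emx1 was not listed under that symbol. Of 11 markers of other brain regions, 7 were listed and 0 reached 1 FPKM in every library, with sums of 3.11, 1.71, 3.35 and 1.83 FPKM in the same order. Tcf7l2 was the most abundant of these, while Hoxb4, Hoxa5, En1 and En2 were not listed under these symbols. Markers of regions next to the cortex were detected: 13 of 14 striatal markers and 2 of 6 markers of olfactory bulb projection neurons, described below, reached 1 FPKM in every library. Slc17a7, an olfactory bulb marker among these, is also on the cortical list. Whether these transcripts came from cortex or from its neighbours was not tested.

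The receptors were scarce beside most genes of the tissue. A level of 1 FPKM was reached in every library by 14 of the 30 receptors (46.7%), against 78.1% of the known genes, and by 16 in at least 1 library. The number at 1 FPKM was 15 and 14 in the male pair and 16 and 15 in the female pair. A mean of 10 FPKM was reached by 0 receptors, against 6133 of the 13033 known genes. Adra2a had the highest mean, 6.74 FPKM, which lay above 43.9% of the known genes. In the order of mean levels, the ranges over the libraries overlapped for 11 of the 13 pairs of neighbours among the 14 receptors. The exceptions were Chrm1 above Chrm3 and Adra2c above Chrm4.

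**Figure D1:**
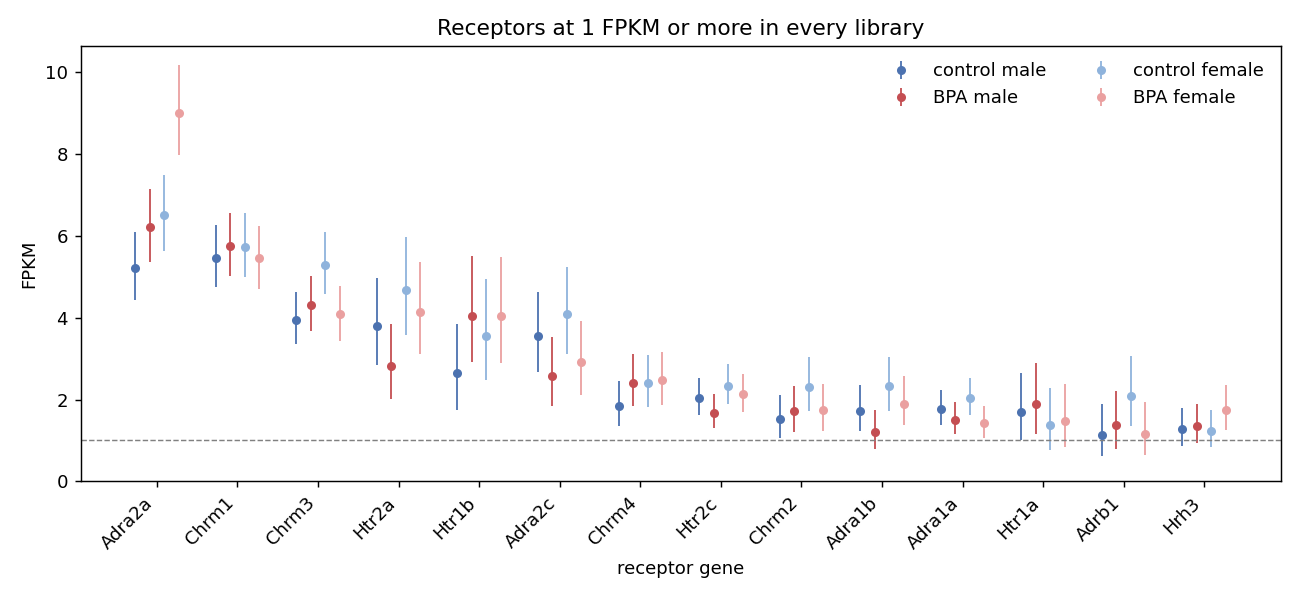
FPKM (vertical axis) of the 14 receptors that reached 1 FPKM in every library, in order of mean level, with 1 point per library and bars for the exact 95% counting interval. Adra2a in BPA female stands highest at 9.01 FPKM, and the dashed line marks 1 FPKM.

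Between BPA and control, few receptors differed by more than counting error. An absolute log2 ratio of at least 1, taken after adding 0.5 FPKM to each value, was reached by 0 of 31 receptors in the male pair, where 1.49% of known genes reached it, and by 0 of 30 in the female pair, where 2.43% did. The added value shrinks the ratios of scarce genes: with 0.1 FPKM in its place, 7 receptors passed in males, against 7.42% of known genes, and 6 in females, against 9.51%. Adra2a was higher in BPA female than in control female, and it was the only receptor of 30 called in the female pair by a two-sided exact conditional binomial test of fragment numbers (the fragment test), which called 23.2% of all transcripts there. Unadjusted, 5 receptors had a p under 0.05 in that pair, Chrm3, Adra1a, Htr5b and Drd5 beside Adra2a, against 32.9% of all transcripts, and the 5 became 1 with fragments scaled to the median of known genes, against 33.5%, and 0 once libraries were allowed to vary by a coefficient of 0.1, against 13.3%. In the male pair the fragment test called 0 of 31 receptors, against 22.3% of all transcripts, and 1 receptor, Htr5a, had an unadjusted p under 0.05, against 31.6%. With fragments summed over the sexes, a test added after the values had been seen, 2 of 30 receptors were called, Adra2a higher and Htr5a lower, against 32.2% of all transcripts.

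When the male and female library of a treatment served as its replicates in limma, which takes them as independent although they may share litters, 0 of the 14 receptors with a mean of at least 1 FPKM passed an adjusted p of 0.05, against 0.562% of the 13163 transcripts tested, and 0 had an unadjusted p under 0.05, against 17.3%. The lowest adjusted p among the receptors in limma was 0.300, for Adra2c. With known genes only, limma called 0 of the 14 receptors, against 477 of 10632 genes. In that fit 1 receptor had an unadjusted p under 0.05, and the share of all genes that did is not given for it. Below, a gene lower or higher in both BPA libraries is one for which both lay below or above both control libraries. Both lay on the same side of both control libraries for 11 of 30 receptors, against 49.7% of known genes. They lay below for 8, against 32.5% of known genes, and above for 3, against 17.2%. Those with lower values in both BPA libraries included Adra1a, Adra1d, Adra2c, Drd5, Htr2b, Htr5a and Htr5b, and those with higher values were Chrm4, Hrh3 and Htr1b. In a bulk tissue, fewer cells of a type and less RNA per cell cannot be told apart.

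The median log2 ratio of the receptors was 0.03 in the male pair, with 14 lower and 15 higher in BPA, and that of known genes was -0.04, with 55.7% lower. In the female pair the receptors' median was -0.15, with 20 lower and 9 higher, and that of known genes was -0.06, with 58.8% lower. The female median was -0.080 with median-centred libraries and -0.25 with a pseudocount of 0.1 FPKM. Between the control libraries, the female library had the higher value for 24 of 30 receptors and the lower value for 5, against 47.9% of known genes lower. The receptors' median log2 ratio of female to male was 0.26, against 0.00270 for known genes. Between the BPA libraries that median was 0.01. Whether the ratio itself differed by sex was tested with a normal approximation of the counting error, which called 0 of 25 receptors with at least 10 fragments, against 1550 of 15253 transcripts. Unadjusted, 2 receptors, Chrm3 and Htr1f, had a p under 0.05, against 3228 transcripts.

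Among the serotonin receptors, 4 of 12 reached 1 FPKM in every library. Htr2a, a receptor coupled to Gq and found mainly on cortical pyramidal neurons, had 3.81 and 2.82 FPKM in the male pair and 4.68 and 4.14 in the female pair. Htr1b, which lowers transmitter release from axon terminals through Gi, had 2.65 and 4.05 FPKM in the male pair and 3.55 and 4.04 in the female pair. The treatments overlapped for Htr2a and did not for Htr1b, whose BPA libraries were both higher. The fragment log2 ratio of Htr1b was 0.61 in males (interval -0.12 to 1.37) and 0.19 in females (interval -0.51 to 0.88), and both intervals held 0.

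Htr2c, a Gq-coupled receptor known for pre-mRNA editing, had 2.04 and 1.68 FPKM in the male pair and 2.34 and 2.13 in the female pair. Htr1a, an inhibitory receptor that also acts as the autoreceptor of serotonin neurons, had 1.70 and 1.89 FPKM in the male pair and 1.39 and 1.47 in the female pair, from 15 to 21 fragments per library. The treatments overlapped for both genes.

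Htr7, coupled to Gs, reached 1 FPKM in 3 of 4 libraries, with 1.21 and 0.46 FPKM in the male pair and 1.01 and 1.01 in the female pair. Htr5a (NCBI Gene 25689), a Gi-coupled receptor of the brain, had 0.86 and 0.29 FPKM in the male pair and 1.18 and 0.65 in the female pair. Both BPA libraries lay below both control libraries for Htr5a, on 15, 5, 20 and 11 fragments in that order. Its summed fragments fell from 35 in control to 16 in BPA, a ratio of 0.458 (interval 0.237 to 0.849; adjusted exact p = 0.0366). Within the sexes Htr5a was not called, with an adjusted exact p of 0.138 in males and 0.270 in females, and its call on summed fragments was lost without BPA male, without control female and with an added coefficient of variation of 0.1.

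The other 6 serotonin receptors stayed under 1 FPKM in every library. They were Htr1d and Htr1f, both coupled to Gi, Htr2b, known from heart and gut, Htr4 and Htr6, both coupled to Gs, and Htr5b, which is silent in humans. Summed over the family, the level was 13.2 and 11.9 FPKM in the male pair and 15.8 and 15.2 in the female pair.

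Among the adrenergic receptors, 5 of 8 reached 1 FPKM in every library. Adra2a (NCBI Gene 25083), the main alpha receptor coupled to Gi in cortex and a brake on noradrenaline release, had 5.22 and 6.21 FPKM in the male pair and 6.50 and 9.01 in the female pair. BPA female stood above the other 3 libraries, and BPA male lay below control female, so the treatments overlapped. The fragment log2 ratio of Adra2a was 0.47 in females (interval 0.20 to 0.75; adjusted exact p = 0.00405) and 0.25 in males (interval -0.06 to 0.56; adjusted exact p = 0.276). With the sexes summed, 353 fragments in control stood against 458 in BPA, a ratio of 1.30 (log2 ratio 0.38, interval 0.17 to 0.58; adjusted exact p = 0.00132). The fragment test also separated BPA female from BPA male for Adra2a, a pair with the same treatment, at an adjusted exact p of 0.00126. The log2 ratio of that pair, taken on FPKM after adding 0.5 and not on fragments, was 0.50. The calls of Adra2a were lost once a between-library coefficient of variation of 0.1 was added to the counting error, and that on summed fragments also without BPA female and without control male. Its limma log2 ratio was 0.34 (standard error 0.201, adjusted p = 0.429), and ranged from 0.085 to 0.59 with each library left out in turn.

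Adra2c, a second Gi-coupled alpha receptor, had 3.55 and 2.58 FPKM in the male pair and 4.08 and 2.91 in the female pair. Both BPA libraries were lower, with a ratio on summed fragments of 0.720 (interval 0.536 to 0.965; adjusted exact p = 0.0752), which did not pass. Adra1a, coupled to Gq, had 1.78 and 1.51 FPKM in the male pair and 2.04 and 1.43 in the female pair, also lower in both BPA libraries, and was not called (ratio 0.771, interval 0.600 to 0.987; adjusted exact p = 0.101).

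Adra1b, coupled to Gq, had 1.72 and 1.20 FPKM in the male pair and 2.32 and 1.90 in the female pair. Adrb1, the Gs-coupled beta receptor that predominates in cortex, had 1.13 and 1.38 FPKM in the male pair and 2.08 and 1.16 in the female pair. The treatments overlapped for both, and Adrb1 rested on 14 to 25 fragments per library. Adra1d and Adra2b stayed under 1 FPKM in every library. The family summed to 13.7 and 13.1 FPKM in the male pair and 17.5 and 16.5 in the female pair.

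Among the muscarinic receptors, 4 of 5 reached 1 FPKM in every library. Chrm1, the Gq-coupled receptor that predominates on cortical pyramidal neurons, had 5.47 and 5.75 FPKM in the male pair and 5.73 and 5.45 in the female pair. Its level was nearly equal in the 4 libraries, and the ratio on summed fragments, 0.999, had the interval 0.870 to 1.15. Chrm3, also coupled to Gq, had 3.95 and 4.31 FPKM in the male pair and 5.28 and 4.08 in the female pair. Control female was the highest library for Chrm3, and the female fragment log2 ratio of -0.38 (interval -0.70 to -0.06; adjusted exact p = 0.0691) did not pass.

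Chrm4, coupled to Gi and abundant in striatum, had 1.84 and 2.41 FPKM in the male pair and 2.40 and 2.47 in the female pair. Both BPA libraries stood above both control libraries for Chrm4, with nearly equal values in BPA male and control female. Chrm2, coupled to Gi and an autoreceptor of cholinergic terminals, had 1.52 and 1.71 FPKM in the male pair and 2.31 and 1.75 in the female pair, with overlapping treatments. Chrm5, coupled to Gq, stayed under 1 FPKM in every library. The muscarinic sum was 12.9 and 14.3 FPKM in the male pair and 15.9 and 13.8 in the female pair.

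Of the dopamine receptors chosen, Drd3, coupled to Gi, and Drd5, coupled to Gs, stayed under 1 FPKM in every library. Drd5 was lower in both BPA libraries, on 3 and 1 fragments in the male pair and 7 and 1 in the female pair. The dopamine receptors outside the choice were more abundant. Drd2, coupled to Gi, had 4.25 and 7.93 FPKM in the male pair and 3.96 and 7.51 in the female pair. Drd1, coupled to Gs, had 2.70, 4.15, 3.42 and 4.27 FPKM in the same order, and the serotonin-gated channel subunit Htr3a had 2.06, 3.59, 1.67 and 2.75. Both BPA libraries were above both control libraries for all 3 of these genes, and limma called 0 of them. The fragment test called Drd2 in both pairs (adjusted exact p = 3.29e-06 in males and 4.23e-06 in females) and, in the male pair only, Drd1 (0.00921) and Htr3a (0.0345).

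Among the histamine receptors, Hrh3, a Gi-coupled autoreceptor that also limits the release of other transmitters, had 1.27 and 1.36 FPKM in the male pair and 1.23 and 1.74 in the female pair. Both BPA libraries were higher, and the fragment test called neither pair. Hrh1, coupled to Gq, and Hrh2, coupled to Gs, stayed under 1 FPKM in every library. Hrh4, mainly a receptor of blood cells, had 0.14 and 0.01 FPKM in the male pair.

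The 14 receptors of the 4-library set under 1 FPKM in every library rested on 0 to 9 estimated fragments per library, and 6 of them had a library at 0, so their ratios were imprecise at this depth. Among the 14 receptors at 1 FPKM or more, the interval of the fragment log2 ratio lay inside -1 to 1 for 8 in the male pair, 8 in the female pair and 13 with the sexes summed, the exception there being Adrb1.

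**Figure D2:**
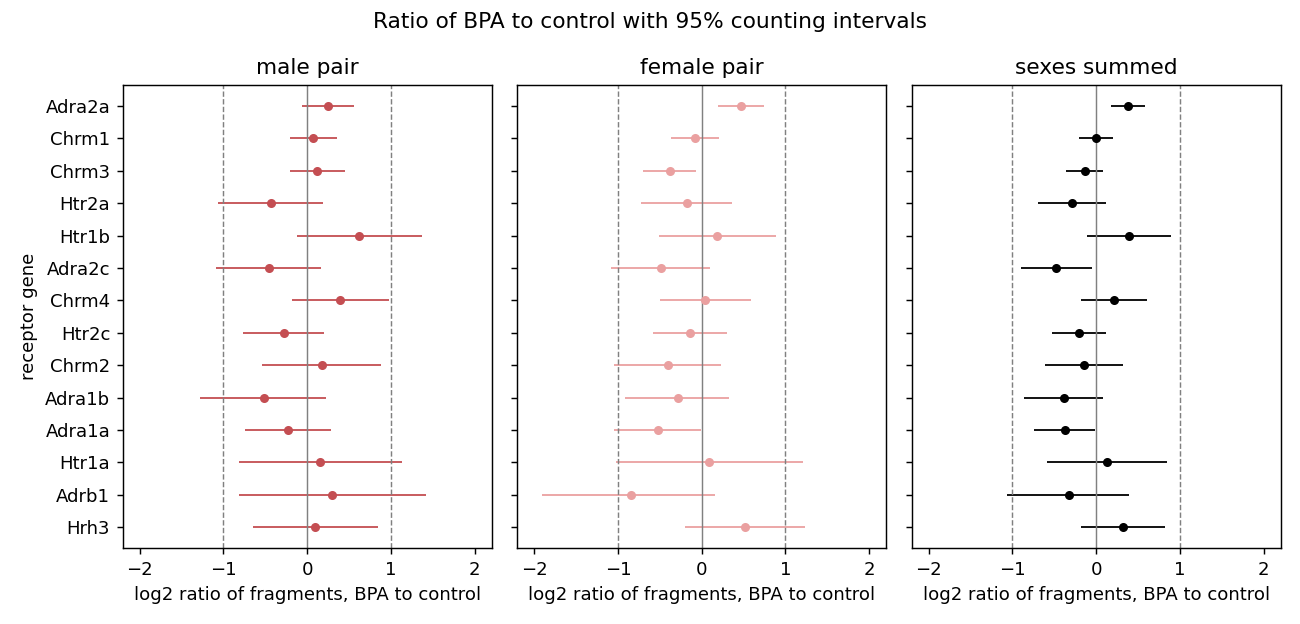
Log2 ratio of estimated fragments, BPA to control (horizontal axis), of the 14 receptors at 1 FPKM or more in every library, for the male pair, the female pair and the fragments summed over the sexes. Points are ratios, bars are exact 95% counting intervals, and dashed lines mark -1 and 1. With the sexes summed, Adra2a has the interval 0.17 to 0.58.

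Grouped by G protein, the 12 Gi-coupled receptors summed to 19.0 and 21.0 FPKM in the male pair and 23.3 and 24.96 in the female pair. The 10 Gq-coupled receptors summed to 19.3, 17.9, 23.0 and 19.3 FPKM in the same order, and the 7 Gs-coupled receptors to 3.37, 2.90, 5.18 and 3.85. The Gi sum was thus higher and the Gq and Gs sums lower in BPA in each pair, as a description with no test. The female rise of the Gi sum was smaller than that of Adra2a alone, so the other Gi receptors together were lower there, and the male fall of the Gs sum was smaller than that of Htr7 alone.

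Downstream of the receptors, 10 genes of phospholipase C beta and Gq effectors had a median log2 ratio of -0.23 in males and -0.36 in females, with 8 of 10 lower in both BPA libraries. For this and the later lists, the shares of known genes were 32.5% lower and 17.2% higher. Of 13 G protein alpha subunits, 2 were lower and 4 higher in both BPA libraries, and of 13 beta and gamma subunits 3 were lower and 6 higher. Among 8 adenylyl cyclases 4 were lower in both BPA libraries, among 7 receptor kinases and arrestins 2, and among 17 RGS proteins, which shorten G protein signals, 7 were lower and 2 higher. Limma called 0 genes of these 6 lists. The fragment test, which called 22.3% of all transcripts in males and 23.2% in females, called some of their genes in both pairs, lower as well as higher. Rgs14 alone among these genes passed the log2 ratio of 1, in females (-1.16).

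For genes that make, move and degrade the transmitters, of 11 synthesis genes 3 reached 1 FPKM in every library and 6 were lower in both BPA libraries. Of 9 transporter genes listed in all 4 libraries 3 were lower, Slc18a1, Slc5a7 and Slc22a3, and 2 higher, Slc18a2 and Slc29a4. Slc29a4, a low-affinity monoamine transporter, had 45.2 and 54.9 FPKM in the male pair and 41.6 and 54.5 in the female pair. Slc5a7 had 1.27, 0.63, 1.04 and 0.76 FPKM in the same order, and Slc22a3 had 2.07, 1.71, 2.18 and 1.42. Of 7 degradation genes 5 were lower, and Hnmt, which methylates histamine, had 6.39, 2.57, 3.68 and 3.58 FPKM in the same order, a log2 ratio of -1.17 in males. Limma called 0 genes of these 3 lists. The fragment test called Slc29a4 higher in both pairs (adjusted exact p = 6.36e-06 in males and 3.48e-10 in females). It called other genes of these lists lower, in males or in both pairs, among them Hnmt (0.000632) and Slc5a7 (0.0133) in males.

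Markers of other cell types and of neighbouring regions also differed between the treatments. Their limma calls, given below, were all lost without the trend, without the filter on low values and without either BPA library. Of 14 striatal markers, 10 were higher and 1 lower in both BPA libraries, and the list summed to 107 and 160 FPKM in the male pair and 111 and 172 in the female pair. Drd1 and Drd2, given above, are on this list and among the 10. Ppp1r1b was the most abundant, and limma called Rxrg (log2 ratio 1.79, adjusted p = 0.0253) and Penk (0.64, adjusted p = 0.0460), while Ebf1 passed a log2 ratio of 1 in both pairs and Gpr6 in males. Chrm4, Drd1 and Drd2 are known from striatal neurons, and the part of these markers in the values of the receptors was not tested.

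Of 6 markers of olfactory bulb projection neurons, 5 were lower in both BPA libraries, with sums of 95.7, 41.8, 105 and 42.8 FPKM in the same order. Slc17a7, shared with the cortical list, was the most abundant. Limma called it (-0.79, adjusted p = 0.0274) and Cdhr1 (-2.04, adjusted p = 0.00834). Tbx21 passed a log2 ratio of 1 in both pairs, and Eomes was not listed under that symbol. All 12 meningeal markers were lower in both BPA libraries, with sums of 497, 223, 644 and 152 FPKM, Ptgds being the most abundant; the study's methods describe removal of the meninges. Limma called 8 of them, Igf2, Col1a1, Col1a2, Col3a1, Dcn, Cldn11, Gjb2 and Slc6a13, and Lum, Ptgds, Aldh1a2 and Foxc1 did not pass. Their part in the lower values of Htr5a, Adra2c and Adra1a was not tested.

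Astrocyte and radial glia markers summed to 732, 614, 738 and 527 FPKM, with 6 of 8 lower in both BPA libraries and 1 higher, Fabp7 the most abundant and Gja1 past a log2 ratio of -1 in females. Microglia and macrophage markers summed to 39.3, 35.6, 42.7 and 26.1 FPKM, with 5 of 8 lower and C1qa, Cd68 and Mrc1 past -1 in females. Aif1 was the most abundant by mean, though C1qa stood above it in both female libraries. Endothelial and mural markers summed to 130, 110, 150 and 96.5 FPKM, with 8 of 10 lower and Cldn5 the most abundant. The oligodendrocyte lineage summed to 104, 92.5, 116 and 96.8 FPKM, with 3 of 8 lower and Olig1 the most abundant. GABA neuron markers summed to 357, 311, 337 and 351 FPKM, with 3 of 9 lower and 2 higher. Npy was the most abundant by mean, though not within either control library. Without Npy the sum was lower in BPA in each pair.

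Mast cell markers summed to 25.5, 22.6, 25.3 and 20.4 FPKM, with 3 of 5 lower in both BPA libraries and 1 higher, Kit, the most abundant. Kit carried most of these sums, and the other 4 summed to 8.13, 2.11, 6.70 and 1.66 FPKM. Limma called Cpa3 among them (log2 ratio -1.94, adjusted p = 0.0466), and Cma1 passed -1 in males. Choroid plexus markers summed to 2.48, 1.80, 3.51 and 1.38 FPKM, with 2 of 7 lower in both BPA libraries and 1 higher. Kcnj13 was the most abundant by mean, though not in BPA male, and passed -1 in females. Without Kcnj13 the sum was higher in BPA male than in control male. Blood markers summed to 1515, 1484, 1428 and 1198 FPKM, with 1 of 5 lower and Hba1 the most abundant. On the cortical list, 4 of 9 were higher in both BPA libraries and 1 lower, and limma called Neurod2 higher (0.50, adjusted p = 0.0481). The part of these cells in the receptors' values was not tested.

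RefSeq promoters (assembly GRCr8, windows of 300 bases around the start of a gene) were matched for 23 of the 30 receptors. Their median GC content was 67.0% with 25 CG dinucleotides, against 60.7% and 20 for known genes listed in all 4 libraries and 52.3% and 7 for all 27457 promoters. The GC box GGGCGG, searched on both strands, was in 12 of 23 (52.2%), against 34.9% of all promoters and 60.2% of those of known genes. The cyclic AMP motif core TGACG, on either strand, was in 5 (21.7%), against 22.0% of all promoters and 30.7% of those of known genes, and TATAAA, on either strand, in 0, against 14.3% and 7.56%. A match describes letters in this window only. The promoters of the receptors called on summed fragments are shown to compare their CG content, with CG dinucleotides in capitals. That of Adra2a, on the plus strand at chr1:263066530-263066829, holds 25, and that of Htr5a, on the minus strand at chr4:8188436-8188735, holds 12.
Adra2a: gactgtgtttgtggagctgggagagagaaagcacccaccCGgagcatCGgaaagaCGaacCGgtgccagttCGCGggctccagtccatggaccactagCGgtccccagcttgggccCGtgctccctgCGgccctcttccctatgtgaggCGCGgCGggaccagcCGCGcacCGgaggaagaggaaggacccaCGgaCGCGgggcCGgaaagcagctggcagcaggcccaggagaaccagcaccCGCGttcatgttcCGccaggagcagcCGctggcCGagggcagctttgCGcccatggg
Htr5a: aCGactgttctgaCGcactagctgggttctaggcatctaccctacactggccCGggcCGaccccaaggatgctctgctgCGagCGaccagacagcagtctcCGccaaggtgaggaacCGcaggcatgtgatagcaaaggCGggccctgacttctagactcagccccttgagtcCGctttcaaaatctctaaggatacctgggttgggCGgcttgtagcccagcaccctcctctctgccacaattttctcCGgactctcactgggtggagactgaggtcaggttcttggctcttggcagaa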

How the data were processed

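The deposited values are FPKM, which the authors obtained by mapping clean reads to Rnor_6.0 with Bowtie2 and calculating expression with RSEM. HISAT is also named in the submitters' processing notes, and versions are not given in the sources used here. Receptors and gene lists were chosen with earlier results of these data known. Receptors that reached 1 FPKM in every library were all named, with the value in each, and most others were named. List genes were named when past the fold, called by limma or most abundant by mean in a marker list. Foxc1, the transporters given above, Drd1, Drd2, Htr3a and markers that were not listed were named outside these conditions. Depth was recovered by choosing, for each library, the total at which scarce transcripts gave the most nearly whole fragment numbers (length reduced by 60 bases); 83.5 to 85.9% of them lay at most 0.1 from a whole number. The fragment test was a two-sided exact conditional binomial test adjusted by Benjamini-Hochberg over all transcripts. Limma 3.58.1 (R 4.3.3) was fitted to log2(FPKM + 0.5) of transcripts with a mean of at least 1 FPKM, with a trend and 2 residual degrees of freedom. The tests were tested on simulated data, where libraries varied beyond counting error and the fragment test also called many unchanged transcripts. Python 3.11.15, numpy 2.4.6, pandas 2.3.3, scipy 1.17.1 and matplotlib 3.10.9 were used.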

Additional observations from a re-analysis of the deposited data

How the results depend on the processing

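The number of receptors at 1 FPKM in every library, 14, became 24 when every value above the lowest counted and 6 at a level of 2 FPKM. The number past the fold, 0 in each pair, became 7 in males and 6 in females with a pseudocount of 0.1 FPKM, and 3 and 4 at a fold of 1.5 times, which 7.01% and 9.81% of known genes passed. As reported, the fragment test called 23.2% of all transcripts in females and 32.2% on summed fragments, and these shares are not given for its changed settings. The number of receptors called by it fell from 1 to 0 in females and from 2 to 0 on summed fragments with a coefficient of variation of 0.1. On summed fragments, it ranged from 1 to 3 with each library left out in turn. It was Adra2a without BPA male or control female, Htr5a without BPA female, and Chrm3, Drd5 and Htr5a without control male. Limma called 0 receptors under every alternative run, with the lowest adjusted p between 0.210 and 0.478. It had little power in several of these: of all transcripts, 74 calls became 0 without a trend and without the filter, and 13 at a mean of 0.1 FPKM. Few or none remained with any library left out. With known genes only limma called more, 477 of 10632. With a library left out, the lone library was assumed to vary like the others. Among limma log2 ratios, none of them called, the sign changed with a library left out for Chrm3 (-0.30 to 0.077), Htr1a (-0.050 to 0.23), Adrb1 (-0.55 to 0.12), Chrm1 (-0.036 to 0.035) and Chrm2 (-0.33 to 0.14), and for Chrm1 also with median-centred libraries (0.049). The cause was not tested. The other 174 limma ratios kept their direction, and 90 male and 90 female pair ratios stayed within counting error or moved towards 0. With sex as a second term, which pairs the libraries by sex, limma called 0 receptors and 86 of 13163 transcripts. Its adjusted p for Adra2a was then 0.241. In that fit 1 receptor had an unadjusted p under 0.05, against 17.3% of all transcripts in the fit without the sex term. The labels give no replicate numbers for another pairing. Depth limits the receptors under 1 FPKM, and 1 library per group limits them all.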
